A study of Mus musculus with 26 samples.

Results

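The RNA response of mouse fibroblasts to 8 h at 42 °C was measured across all genes, by comparing the 2 RNA libraries labelled with that treatment with the 2 libraries of the heat control. These are 4 of the 26 libraries of the study. They were chosen by their labels, not by any measured value. All came from NIH3T3, an established line of mouse embryonic fibroblasts, and were sequenced after selection of RNA with a polyA tail. The labels name no genotype, transgene or drug in these groups, and the control temperature was not given in the sources used here. A further pair of libraries, from cells kept at 44 °C for 2 h, shared the same control and entered the same fit. The remaining libraries covered H2O2, KCl and ribosome footprints and were not used. The title of the study asks how transcription that runs on past gene ends under stress enters neighbouring genes, and relates this to retained introns.

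Heat unfolds proteins, and cells respond by making chaperones, which bind unfolded proteins and help them refold. Their genes are switched on by heat shock factor 1, which binds repeats of the letters GAA and TTC in promoters (heat shock elements). Stress can also activate the integrated stress response, in which kinases slow translation and the transcription factor ATF4 raises genes of amino acid supply.

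Total expected counts came to 42698179 and 36061919 for the control libraries, to 37786628 and 30452066 for those at 42 °C and to 34537993 and 32805080 for those at 44 °C. Levels below are CPM (counts scaled to library size) after TMM normalization, given for the 2 libraries of a group. A value with ± is a log2 fold change and its approximate standard error, at 42 °C against the control unless said otherwise. The standard error was computed from the F statistic of edgeR's quasi-likelihood fit (n = 2 libraries per group). The spread behind it was estimated over the control, 42 °C and 44 °C libraries together, not from the compared groups alone. A gene was called at an adjusted p under 0.05. The labels do not say whether replicates were separate cultures, so p-values measure the spread between these libraries, which may be technical. Replicates correlated at Pearson's r of 0.995 in each of the 3 groups, computed on log2 CPM over genes, a description since genes share a library.

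The labelled cell type was checked against markers. Summed TPM (transcript level scaled to length and library total) of 10 fibroblast markers was 12540 and 12740 in the control and 10410 and 10740 at 42 °C, and no marker of the list was at 0 in all 6 heat libraries. Of the fibroblast markers 7 fell and 2 rose, Vim by 0.10 ± 0.039 (-0.09 on log2(TPM + 1), not called) and Fn1 by 0.64 ± 0.039, with Col3a1 lowest at a log2 fold change of -1.43 ± 0.053. Summed TPM of the epithelial, endothelial, leukocyte, muscle and adipocyte lists each reached at most 13.5 in the control and 42 °C libraries. The epithelial sum was 8.90 and 9.38 in the control and 13.4 and 12.2 at 42 °C, with 1 of 7 markers at 0 in all 6 libraries, Krt8, Krt18 and Cldn4 called higher, and the defining genes Epcam and Cdh1 not called. The part of these shifts in the results below was not tested. In bulk RNA, fewer cells of a type and less RNA per cell cannot be told apart. The summed TPM of the leukocyte list ranged from 9.54 to 10.4 in the control and from 7.74 to 7.84 at 42 °C, with 2 of 6 markers at 0 in all 6 libraries.

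Of 12747 genes tested, 8113 (63.6%) were called at 42 °C, with 4041 (31.7%) higher and 4072 (31.9%) lower. Most of these changes were small. By at least 1 on the log2 scale, 360 genes (2.82%) were higher and 650 (5.1%) lower, 1010 genes (7.92%) in all. On log2(TPM + 1), 1945 genes were higher and 6287 lower, and the median over all genes tested moved from -0.0145 to -0.163, so that small rises in CPM can turn into falls on that scale. The largest rises and falls named below kept their direction on both scales. All shares of members called, given below, are to be set against these shares over all genes.

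**Figure D1:**
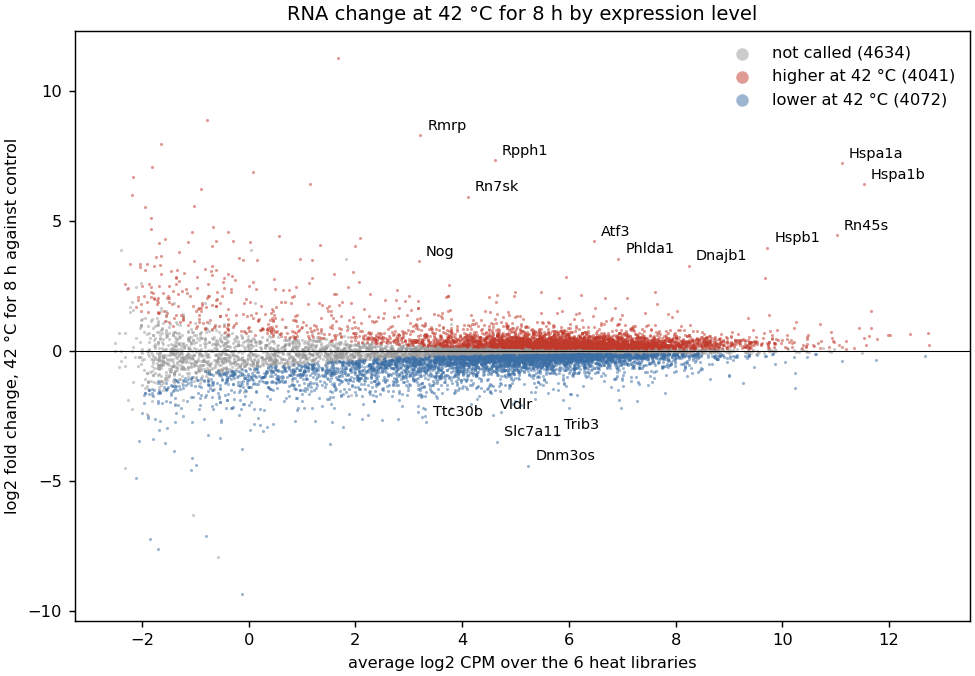
Log2 fold change at 42 °C for 8 h against control (y axis) by average log2 CPM over the 6 heat libraries (x axis), 1 point per gene tested, coloured by call. Hspa1a and Hspa1b combine a high level with a rise above 6, and Dnm3os has the largest labelled fall, at -4.40; points of larger fold changes at low levels were below the minimum average of 3 set for naming a gene, and some are rows of genes whose counts are divided between an older and a newer symbol.

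The inducible HSP70 genes had the largest changes among abundant RNAs. HSP70 proteins bind short hydrophobic stretches of unfolded proteins and release them in cycles driven by ATP. Hspa1a, an intronless inducible member, was at 34.4 and 49.0 CPM in the control libraries and at 6403 and 6027 CPM at 42 °C. The log2 fold change of Hspa1a was 7.22 ± 0.16 (adjusted p = 2.06e-13). Its neighbour and near copy Hspa1b went from 82.5 and 107 CPM to 8084 and 7979 CPM, a log2 fold change of 6.41 ± 0.12. The control and 42 °C libraries were far apart for both genes. The genes share most of their sequence, so how reads were divided between them is uncertain. Together they took 0.0119% and 0.0159% of all counts in the control and 1.34% and 1.30% at 42 °C.

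Of the other HSP70 and HSP110 genes, Hsph1, which encodes the nucleotide exchange factor HSP110, rose from 150 and 159 to 1059 and 1086 CPM (2.80 ± 0.056). Hspa1l, a relative expressed mainly in testis, rose from 1.06 and 0.488 to 4.20 and 3.74 CPM (2.33 ± 0.27). The constitutive Hspa8 rose by 0.88 ± 0.040, Hspa4l by 0.79 ± 0.039, Hspa4 by 0.59 ± 0.038 and Hspa14 by 0.46 ± 0.046. Hspa2 fell by 0.71 ± 0.094 and the divergent member Hspa12b fell by 0.75 ± 0.085. Hspa12a had a log2 fold change of 0.02 ± 0.19 and was not called. Of the 11 members tested 8 thus rose and 2 fell.

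The small heat shock proteins hold unfolded proteins without using ATP. Hspb1 (HSP27) rose from 43.4 and 50.9 CPM to 724 and 753 CPM, by 3.97 ± 0.073. Hspb8 rose by 0.87 ± 0.047 and Cryab by 0.31 ± 0.11, though Cryab was not called without control library 1 (0.11, adjusted p = 0.336), without either 42 °C library or on log2(TPM + 1) (0.17). Hspb6 (-0.13 ± 0.064; -0.31 and called on log2(TPM + 1)) and Hspb2 (-1.21 ± 0.59, at most 0.597 CPM in any control or 42 °C library) were not called. Hspb3 and Hspb7 had at most 5 counts in any heat library and were not tested.

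The HSP40 proteins deliver clients to HSP70 and stimulate its ATPase, and BAG proteins promote nucleotide exchange. In this list, which also held the HSP90 co-chaperone gene Chordc1, 15 of 23 genes rose and 1, Dnajb14, fell by 0.48. On log2(TPM + 1), 13 rose and 6 fell. Dnajb1, the main HSP40 partner of HSP70 in the cytosol, went from 70.9 and 75.3 CPM to 710 and 700 CPM (3.27 ± 0.048, adjusted p = 5.85e-15). Dnaja4 rose by 2.13 ± 0.066, Dnajb4 by 2.05 ± 0.042 and Dnaja1 by 1.25 ± 0.038. Bag3, which links HSP70 clients to autophagy, rose from 58.2 and 63.8 to 242 and 254 CPM (2.02 ± 0.053).

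HSP90 matures kinases and steroid receptors with a set of co-chaperones. Of 13 genes 10 rose and none fell (9 and 3 on log2(TPM + 1)), while Fkbp5, Unc45a and Stub1 were not called. The inducible Hsp90aa1 went from 1145 and 1112 CPM to 3285 and 3224 CPM (1.53 ± 0.042). The constitutive Hsp90ab1 rose by 0.63 ± 0.041, and the co-chaperones Cacybp by 1.00 ± 0.044, Ahsa1 by 0.79 ± 0.042 and Ppid by 0.78 ± 0.047.

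All 10 genes of the ring-shaped chaperonins rose. Hspe1 and Hspd1, the lid and the barrel of the mitochondrial chaperonin, rose by 1.46 ± 0.049 and 1.40 ± 0.040. The 8 subunits of the cytosolic CCT ring rose by less, from 0.37 to 0.67 on the log2 scale. The other mitochondrial chaperones and proteases were mixed: 5 of 11 rose, by at most 0.35 (Afg3l2; on log2(TPM + 1), 1 rose and 4 fell), the protease gene Lonp1 fell by 0.61 ± 0.040, and the mitochondrial HSP70 gene Hspa9 was at 750 and 724 CPM in the control and at 759 and 720 CPM at 42 °C. The 5 lists of HSP70, small heat shock, HSP40, HSP90 and chaperonin genes together took 1.49% and 1.5% of counts in the control and 3.81% and 3.74% at 42 °C. Of the factors themselves, Hsf1 rose by 0.38 ± 0.051 and Hsf2 by 0.42 ± 0.062, Hsf4 fell by 0.33 ± 0.088 (-0.20 without 42 °C library 1, adjusted p = 0.103), and the repressor Hsbp1 was not called in CPM (-0.09 ± 0.043) but was lower on log2(TPM + 1) (-0.27, limma adjusted p = 0.000105).

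**Figure D2:**
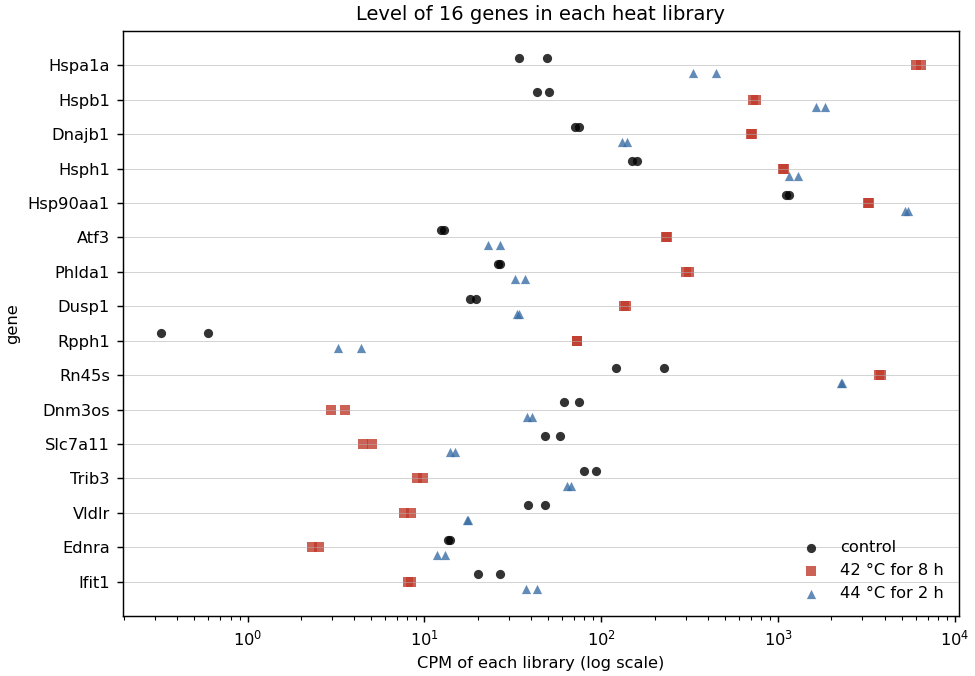
CPM of 16 genes in each of the 6 heat libraries on a log axis; circles are control, squares 42 °C for 8 h and triangles 44 °C for 2 h, 2 libraries each. For each of the 16 genes the 42 °C libraries lie outside the range of the control libraries, and Hspa1a, Dnajb1, Atf3 and Phlda1 are higher at 42 °C than at 44 °C, while Hspb1 and Hsp90aa1 are lower.

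Promoter windows were searched for heat shock elements. RefSeq windows of 300 bases (250 before to 50 after the start, build GRCm38.p6) were at hand for 9848 of the 12747 genes tested. An element of 3 units, searched as GAA, TTC and GAA or TTC, GAA and TTC with 2 free bases (NN) between units, was in 0.548% of them. It was in 1.66% (4 of 241) of the genes higher by at least 1 and in 0.213% (1 of 470) of those lower by at least 1. In the chaperone lists it was in 1 of 10 windows of HSP70 and HSP110 genes (Hsph1). It was in 2 of 19 windows of the HSP40 and BAG list, those of Dnajb6 and Chordc1. Chordc1, held in that list, encodes an HSP90 co-chaperone and not an HSP40 or BAG protein. The element was in 2 of 9 windows of chaperonins (Hspd1 and Hspe1). It was in none of the 3 small heat shock protein windows and none of the 10 of the HSP90 list, so most chaperone windows lacked it. An element of 2 units, searched as GAANNTTC or TTCNNGAA, was in 13.7% of all windows, in 16.2% of those of genes higher by at least 1 and in 15.3% of those lower by at least 1. In the same order of lists it was in 3, 6, 5, 3 and 3 windows. Both strands are covered because each pair of patterns is its own reverse complement, and every 3-unit match also holds a 2-unit match. A match describes the letters only. The 3-unit matches of Hspe1 and Hspd1, and the 2-unit matches before the 3 genes with the largest chaperone rises, are printed because these genes led their lists. The matches of Hspe1 and Hspd1 overlap on opposite strands but do not cover the same bases. Capitals mark the matched letters.
Hspe1, chr1:55088055-55088084, plus strand: tccgttctaGAACCTTCCGGAAggccccgc
Hspd1, chr1:55088051-55088080, minus strand: ggccttccgGAAGGTTCTAGAAcggaccgt
Hspa1a, chr17:34972227-34972286, minus strand: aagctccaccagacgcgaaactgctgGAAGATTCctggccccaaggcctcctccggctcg
Hspa1b, chr17:34959309-34959368, minus strand: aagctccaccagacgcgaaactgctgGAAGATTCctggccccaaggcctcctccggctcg
Hspb1, chr5:135887796-135887855, plus strand: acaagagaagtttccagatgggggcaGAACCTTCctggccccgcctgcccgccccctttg
The windows of Hspa1a and Hspa1b carry the same 60 letters, and the Hspe1 and Hspd1 windows overlap on opposite strands.

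RNAs that are made without a polyA tail were the other group with very large rises, in libraries selected for polyA tails. Rmrp, the RNA of a ribonuclease that processes ribosomal RNA, had 2 and 5 counts in the control libraries and 1007 and 797 at 42 °C. Its ratio was 297, with an exact 95% counting interval of 144 to 741. Rpph1, the RNA of the ribonuclease that trims tRNA, had 14 and 22 counts against 2560 and 2065 (148-fold, interval 107 to 212). Rn7sk, which holds an elongation factor inactive, had 37 and 29 counts against 1711 and 1475 (55.7-fold, interval 43.7 to 72.2). Ratios of counts, here and below, were scaled by the total counts of the libraries without TMM, unlike the log2 fold changes. Their intervals cover counting error only. Vaultrc5 had 0 counts in both control libraries and 33 and 22 at 42 °C, at least 21.2-fold higher with the floor set at 3 counts over the control group, and with an exact 95% lower limit of 16.6 for the ratio from the counts themselves.

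Of 16 such RNAs listed 7 were tested, and of these 6 were called higher and none lower. The rest (Rny1, Rny3, Rnu7, Rnu11, Rnu12, Scarna2, Scarna6, Scarna8 and Scarna13) had at most 6 counts in any heat library. Rmrp and Vaultrc5 passed the filter on low counts only through heated libraries, where they were high. The share of tested RNAs called higher is thus partly set by the filter. The telomerase RNA Terc, at most 0.136 CPM in any control or 42 °C library, was not called. Rn7s1 and Rn7s2, copies of the signal recognition particle RNA with identical rows in the table, rose by 2.12 ± 0.18 and cannot be told apart. The precursor of ribosomal RNA, Rn45s, was at 225 and 121 CPM in the control and at 3735 and 3814 CPM at 42 °C (4.45 ± 0.19). All of these RNAs and Rn45s together made up 0.0247% and 0.0133% of counts in the control and 0.364% and 0.374% at 42 °C. Replication-dependent histone mRNAs, which end in a stem-loop instead of a polyA tail, were divided. Of 39 listed 26 were tested, and of these 13 were higher and 3 lower. Hist1h4d had 0.161 and 0.108 CPM in the control and 0.686 and 0.705 CPM at 42 °C. It too passed the filter on low counts only through heated libraries, so the share of histone genes called higher is partly set by the filter. Hist1h2ap, a histone row outside that list and with near-identical copies, so that its reads are uncertain, was 1 of the 12 largest falls, from 63.9 and 46.6 CPM to 13 and 8.88 CPM (-2.32 ± 0.15).

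Most genes of the integrated stress response fell. Of 22 genes 19 fell and 3 rose, with a median log2 fold change of -1.09 beside -0.0145 over all genes tested. Slc7a11, which encodes the cystine importer, fell from 58.2 and 48.2 CPM to 4.49 and 5.08 CPM (-3.48 ± 0.11, adjusted p = 5.35e-12). Trib3, a pseudokinase that restrains ATF4, fell from 93.8 and 80.2 CPM to 9.75 and 9.10 CPM (-3.20 ± 0.083). Vldlr, a lipoprotein receptor, fell from 48.2 and 38.7 CPM to 8.35 and 7.62 CPM (-2.44 ± 0.10). In each of these 3 genes both 42 °C libraries were below both control libraries.

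The enzymes and regulators of this response fell by less. Chac1, which degrades glutathione, fell from 53.3 and 49.7 CPM to 12.7 and 14.8 CPM (-1.92 ± 0.089). Sesn2, a leucine sensor, fell by 1.82 ± 0.076, with Ddit3 (CHOP) at -1.57 ± 0.10, Asns (asparagine synthetase) at -1.49 ± 0.049 and Ddit4 at -1.08 ± 0.055. The serine synthesis genes Psat1 and Phgdh were at -0.74 ± 0.042 and -0.58 ± 0.039. Atf4 itself fell from 436 and 415 CPM to 321 and 308 CPM (-0.44 ± 0.042). Nupr1 fell by 0.78 ± 0.056.

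The 3 genes of the list that rose were regulators. Atf3, a factor induced by many stresses, went from 12.8 and 12.5 CPM to 233 and 235 CPM (4.21 ± 0.064, adjusted p = 5.85e-15). Cebpb rose by 0.70 ± 0.058 and Ppp1r15a, the phosphatase subunit that ends the response, by 0.45 ± 0.060.

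Amino acid supply moved the same way. Of 13 amino acid transporters 12 fell and 1, Slc38a4, rose by 0.24 (0.05 on log2(TPM + 1), not called). The glycine transporter gene Slc6a9 fell from 109 and 97.7 CPM to 22.2 and 23.2 CPM (-2.19 ± 0.062). Slc1a4 was at -1.24 ± 0.056, Slc7a5 at -1.20 ± 0.041 and Slc38a2 at -0.23 ± 0.040. Slc7a11 and Slc7a5 are in both lists. Of 20 genes of aminoacyl-tRNA synthetases, which load tRNAs, 12 fell and 7 rose (on log2(TPM + 1), 13 fell and 2 rose). Cars was at -1.09 ± 0.046, Sars at -0.95 ± 0.041, Aars at -0.94 ± 0.038 and Lars at -0.80 ± 0.052. The hormone gene Fgf21 had 68 and 41 counts in the control and 6 and 4 at 42 °C, 9.44-fold lower (interval 4.94 to 20.2).

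Letters of the type bound by ATF4 with C/EBP partners, searched as TGATGNAA on both strands, were in 2.66% of the promoter windows of genes tested. They were in 5.96% of windows of genes lower by at least 1, in 2.9% of those higher by at least 1 and in 33.3% (7 of 21) of the integrated stress response list. This motif was chosen after the fall of the list was seen. It was found in the windows of Slc7a11, Trib3, Vldlr, Chac1, Asns and Nupr1, genes that fell, and in that of Atf3, which rose. The windows of Slc7a11, Vldlr, Chac1, Asns and Atf3 are shown because genes that match the same pattern changed in opposite directions. The match of Asns differs from the others at the free base N.
Slc7a11, chr3:50443642-50443671, minus strand: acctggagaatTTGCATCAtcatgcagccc
Vldlr, chr19:27216809-27216838, plus strand: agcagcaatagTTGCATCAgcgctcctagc
Chac1, chr2:119351023-119351082, plus strand: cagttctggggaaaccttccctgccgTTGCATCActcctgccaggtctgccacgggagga
Asns, chr6:7693210-7693269, minus strand: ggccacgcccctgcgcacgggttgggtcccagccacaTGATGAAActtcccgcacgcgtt
Atf3, chr1:191183410-191183469, minus strand: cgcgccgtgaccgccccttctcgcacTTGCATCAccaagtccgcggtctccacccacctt

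**Figure D3:**
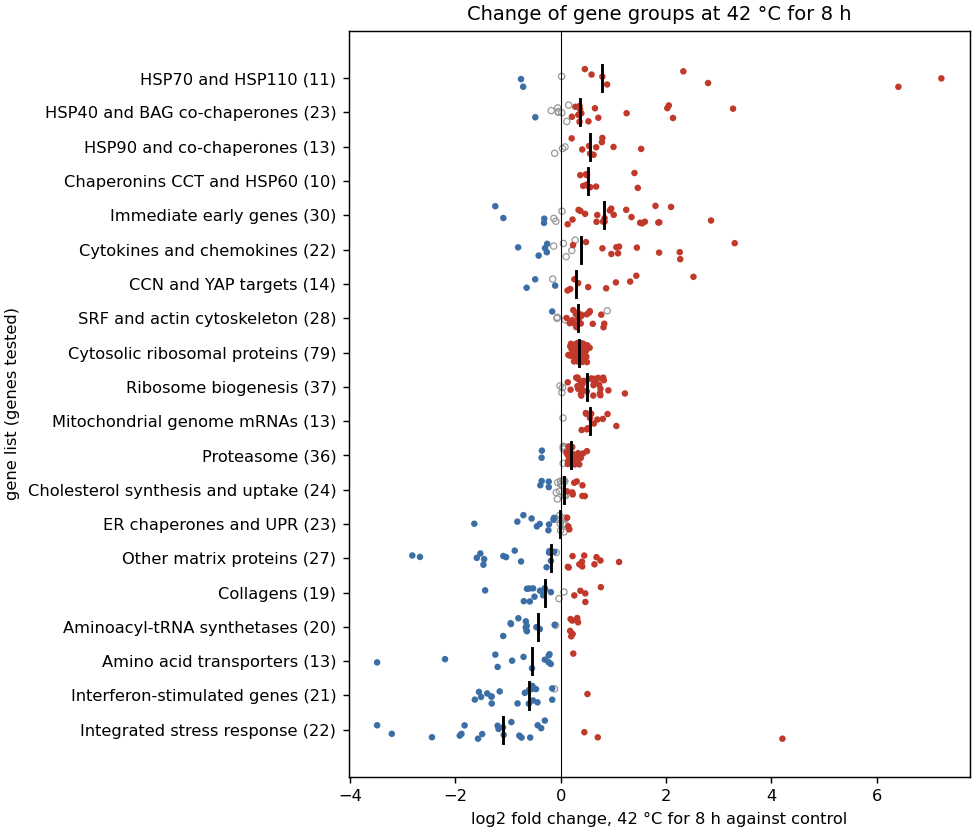
Log2 fold change at 42 °C for 8 h against control (x axis) of every tested member of 20 gene lists (y axis, number tested in brackets); filled points were called, open points were not, and black bars mark list medians. The chaperone, immediate early, ribosomal and actin lists lie mostly to the right of 0, and the interferon, amino acid transporter and integrated stress response lists mostly to the left; Atf3 is the member of the last list beyond 4.

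Immediate early genes, which growth factors or stress switch on within minutes, were raised at 8 h: 23 of 30 rose and 4 fell, with a median of 0.82. Dusp1, a phosphatase that switches off MAP kinases, went from 18 and 19.6 CPM to 134 and 137 CPM (2.85 ± 0.053). Dusp5, which acts on ERK in the nucleus, rose by 2.10 ± 0.081. Of the AP-1 transcription factor genes Fos rose from 12.4 and 13.5 to 45.6 and 49.5 CPM (1.87 ± 0.070), Fosb by 1.85 ± 0.20 and Jun by 1.80 ± 0.044. The zinc finger factor gene Klf6 rose by 1.55 ± 0.043 and Myc by 1.34 ± 0.061. The 4 genes that fell were Klf2 (-1.24), Ier2 (-1.09 ± 0.056), Nr4a2 (-0.32) and Klf4 (-0.31 ± 0.091).

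Among the largest rises were also Phlda1, which encodes a pleckstrin homology-like protein, from 26 and 26.7 CPM to 302 and 315 CPM (3.55 ± 0.058), and Nog, which encodes the BMP antagonist noggin, from 2.00 and 2.31 CPM to 22.6 and 24.2 CPM (3.45 ± 0.11). Neither gene was at a comparable level in any control library.

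Inflammatory genes rose in part, 12 of 22 with 5 lower. Ptgs2, which encodes the inducible prostaglandin synthase COX-2, went from 84.9 and 75.4 CPM to 400 and 374 CPM (2.27 ± 0.056). Tnfaip3, a feedback inhibitor of NF-kB, went from 21.3 and 20.4 CPM to 104 and 95.9 CPM (2.26 ± 0.065). Il6 had 3 and 1 counts in the control and 18 and 15 at 42 °C (9.52-fold, interval 3.39 to 37.0). The IL-33 receptor gene Il1rl1, the most abundant of the list, rose by 0.79 ± 0.049. The genes that fell were Cxcl16 (-0.81), Nfkbia (-0.42), Cxcl5 (-0.30), Cxcl12 (-0.26) and Vcam1 (-0.26). Of 24 growth factor genes 11 rose and 8 fell: Bdnf rose by 1.35 ± 0.060, while Vegfa fell by 0.54 ± 0.073.

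In a list of CCN family genes and targets of the coactivator YAP, 10 of 14 rose and 3 fell (Wisp2, Nov and Amotl1). On log2(TPM + 1), 7 rose and 3 fell. Ankrd1 went from 5.88 and 5.32 CPM to 33.2 and 31.1 CPM (2.52 ± 0.080), and Ctgf, a matricellular protein gene, from 56.8 and 48.7 to 149 and 137 CPM (1.44 ± 0.065). Amotl2 rose by 1.32 ± 0.040, and Ajuba was also called higher. Of 28 genes of actin fibres controlled by the factor SRF, 23 rose and 1, Lima1, fell (on log2(TPM + 1), 16 rose and 4 fell). Tagln rose by 0.81 ± 0.059, Fhl2 by 0.83 ± 0.062, Cnn1 by 0.77 ± 0.066 and Tpm1 by 0.61 ± 0.044, while the abundant Actb was not called in CPM (-0.06 ± 0.039) but was lower on log2(TPM + 1) (-0.25, limma adjusted p = 0.000982). TGF-beta targets were divided, with 6 of 16 higher and 7 lower. The inhibitor gene Smad7 rose by 1.47 ± 0.052 and the ligand gene Tgfb3 fell by 1.35 ± 0.062.

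Genes of protein synthesis moved together and by little. All 79 tested genes of cytosolic ribosomal proteins rose, by 0.15 to 0.55 on the log2 scale, with a median of 0.35 (on log2(TPM + 1), 54 rose, none fell, and the median was 0.16 beside -0.163 over all genes). Rps12 rose from 437 and 419 CPM to 658 and 594 CPM (0.55 ± 0.056) and Rps2 by 0.51 ± 0.041. Of 36 translation factors 32 rose and 2 fell (17 and 3 on log2(TPM + 1)). Eif5a, which helps ribosomes through stalling sequences, rose by 0.65 ± 0.043, and Pabpc4 by 0.78 ± 0.040. The inhibitor of cap-dependent initiation Eif4ebp1 fell from 119 and 127 to 66.9 and 69.2 CPM (-0.86 ± 0.049), and the other gene that fell was Eif3c (-0.33).

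Ribosome biogenesis genes rose in 34 of 37 cases and fell in none, with a median of 0.50. Taf1d, a subunit of the factor that starts ribosomal RNA synthesis and a snoRNA host, rose from 49.6 and 43.1 CPM to 111 and 105 CPM (1.22 ± 0.060), and the nucleolar chaperone gene Npm1 by 0.81 ± 0.042. Polr1b, Polr1c and Ubtf were not called. Of 16 snoRNA host genes 8 rose and 3 fell (8 and 6 on log2(TPM + 1)), with Snhg12 at 1.58 ± 0.093 and Snhg1 at 1.37 ± 0.076. Polyamine synthesis rose in 6 of 10 genes and fell in 2 (4 and 4 on log2(TPM + 1)), with Srm at 0.99 ± 0.049 and Odc1 at 0.72 ± 0.042.

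Splicing genes rose slightly. Of 30 core spliceosome genes 23 rose and none fell (10 and 3 on log2(TPM + 1)), with the largest rise in Snrpa1, at 0.77 ± 0.055. Of 12 SR protein genes 10 rose, by at most 0.54 (on log2(TPM + 1), 6 rose and 2 fell), and Srsf5 fell by 0.28 ± 0.053. The kinases that phosphorylate SR proteins were divided: Clk4 rose by 0.82 ± 0.057, Clk3 by 0.32 ± 0.054 and Srpk1 by 0.28 ± 0.047 (0.10 on log2(TPM + 1), not called), while Clk1 fell from 63.8 and 58.9 to 38.8 and 40.6 CPM (-0.63 ± 0.054) and Srpk2 fell by 0.24 ± 0.043. Of 24 genes of cleavage, polyadenylation and termination 16 rose and 5 fell, with Pcf11 at 0.53 ± 0.047 and Clp1 at -1.49 ± 0.092 (on log2(TPM + 1), 7 rose and 6 fell).

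Of the protein degradation genes, all 4 ubiquitin genes rose (3 on log2(TPM + 1)), with the polyubiquitin gene Ubb at 0.43 ± 0.041. In CPM 28 of 36 proteasome genes rose and 2 fell, but on log2(TPM + 1) 6 rose and 8 fell, so their direction depends on the scale. The 2 that fell, Psme1 (-0.36 ± 0.044) and Psme2 (-0.36), form the interferon-inducible activator. Of 25 autophagy genes 15 fell and 7 rose, and of 25 lysosome genes 13 fell and 4 rose (on log2(TPM + 1), 18 against 2 and 21 against 1). Atg13, which starts autophagosome formation, was at -0.59 ± 0.059 and the receptor gene Nbr1 at -0.42 ± 0.047, while Ctsk rose by 1.83 ± 0.21.

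Among chaperones and stress response genes of the endoplasmic reticulum more fell than rose. Of 23 genes of this list 3 rose (Hsp90b1, Dnajb11 and Hyou1, by at most 0.16), 10 fell and 10 were not called (on log2(TPM + 1), none rose and 17 fell). Herpud1, which takes part in the disposal of misfolded proteins, fell from 93.7 and 92.3 CPM to 29.2 and 30.6 CPM (-1.64 ± 0.056). The ubiquitin ligase gene Syvn1 was at -0.82 ± 0.049, the transcription factor gene Xbp1 at -0.71 ± 0.055 and Dnajb9 at -0.55 ± 0.076.

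Interferon-stimulated genes fell, 19 of 21, with a median of -0.60. Ifit1, which binds foreign RNA, went from 26.8 and 20.02 CPM to 8.09 and 8.43 CPM (-1.51 ± 0.13), and Ifit3 from 14.1 and 9.98 to 4.005 and 3.81 CPM (-1.63 ± 0.15). Oasl2 was at -1.55 ± 0.12 and Gbp2, a guanylate-binding protein gene, at -1.39 ± 0.072. The exception was Irf1, which rose by 0.51 ± 0.048, and Mx2 was not called.

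Letters of the interferon-type element, searched as TTTC, 2 free bases and TTTC on both strands after the fall was seen, were in 3.68% of windows of genes tested. They were in 10.9% of the windows of genes lower by at least 1, in 2.9% of those higher by at least 1, and in 64.7% (11 of 17) of the interferon list. The windows of Ifit1, Ifit3 and Gbp2 are shown as the members with the largest falls that carry the letters.
Ifit1, chr19:34640794-34640823, plus strand: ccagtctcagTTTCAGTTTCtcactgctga
Ifit3, chr19:34583397-34583426, plus strand: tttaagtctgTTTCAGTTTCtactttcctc
Gbp2, chr3:142620579-142620638, plus strand: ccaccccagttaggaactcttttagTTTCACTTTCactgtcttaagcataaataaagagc

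Among genes whose average log2 CPM reached 3, the largest fall was that of Dnm3os, a long non-coding RNA (chr1:162217623-162225550, build GRCm38.p6) that lies within the Dnm3 gene on the opposite strand. Dnm3os went from 74.5 and 61.9 CPM to 2.95 and 3.56 CPM, a log2 fold change of -4.40 ± 0.11 (adjusted p = 1.02e-12). Dnm3 was at 1.95 and 1.22 CPM in the control and at 1.03 and 0.670 CPM at 42 °C (-0.89 ± 0.31), and was not called without control library 1 (-0.49, adjusted p = 0.263) or 42 °C library 2 (-0.64, adjusted p = 0.159). Strand-specific counting is not stated in the labels, and without strand the reads of both genes cannot be told apart where they overlap. Dnm3os spans the loci of miR-199a and miR-214 in the RefSeq annotation. Their mature sequences are given, plus strand, with the seed, bases 2 to 8, in capitals. The microRNAs themselves were not measured.
mmu-miR-199a-5p, chr1:162217844-162217866: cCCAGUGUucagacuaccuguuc
mmu-miR-199a-3p, chr1:162217883-162217904: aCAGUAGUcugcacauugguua
mmu-miR-214-5p, chr1:162223397-162223418: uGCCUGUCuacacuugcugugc
mmu-miR-214-3p, chr1:162223438-162223459: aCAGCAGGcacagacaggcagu
The 4 seeds differ from one another.

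Matrix genes moved in both directions. Of 19 collagen genes 12 fell and 5 rose. Col3a1 went from 1699 and 1773 CPM to 605 and 681 CPM (-1.43 ± 0.053), Col6a2 was at -0.70 ± 0.044 and the abundant Col1a1 at -0.18 ± 0.043. Col12a1 rose by 0.76 ± 0.062, and the other risers were Col4a1, Col4a2, Col7a1 and Col18a1. The crosslinking enzyme gene Lox fell from 1827 and 1797 to 987 and 1015 CPM (-0.86 ± 0.049). Of 27 other matrix protein genes 15 fell and 11 rose. Emilin1, an elastic fibre protein gene, fell from 333 and 347 to 109 and 117 CPM (-1.59 ± 0.046), while Fn1 (fibronectin) rose from 4691 and 4697 to 7363 and 7280 CPM. Elastin and decorin were low: Eln had 101 and 114 counts against 12 and 12 (7.76-fold lower, interval 5.08 to 12.4), and Dcn 111 and 117 against 9 and 19 (7.06-fold lower, interval 4.75 to 10.9). Of 23 proteases and inhibitors 12 fell and 7 rose (13 and 4 on log2(TPM + 1)), with Mmp19 at -1.61 ± 0.056.

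Among receptors, 9 of 16 growth factor receptors fell and 3 rose (Axl, Met and Fgfr2; 1 on log2(TPM + 1)), with Pdgfra at -0.75 ± 0.056. Ednra, the endothelin receptor gene and 1 of the 12 largest falls, went from 13.9 and 13.6 CPM to 2.32 and 2.54 CPM (-2.51 ± 0.11). Of the Wnt and Notch genes 11 of 25 fell and 6 rose (15 and 2 on log2(TPM + 1)), with Notch3 at -1.17 ± 0.10 and Fzd1 at -0.99 ± 0.060.

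Genes of energy metabolism were counted by compartment. Of 13 mRNAs of the mitochondrial genome 12 rose and ND5 was not called. ND2 went from 1309 and 1029 CPM to 2395 and 2470 CPM (1.06 ± 0.093). Nuclear genes of the respiratory chain had 20 of 60 higher and 3 lower in CPM but 2 higher and 27 lower on log2(TPM + 1), so no direction is given for them. Of 20 glycolysis genes 12 fell and 3 rose (Pgam1, Eno1 and Pkm, by at most 0.18), and on log2(TPM + 1) 16 fell and none rose. The lactate exporter gene Slc16a3 fell from 78.2 and 83.5 to 24.0 and 26.4 CPM (-1.68 ± 0.060), with Aldoc at -1.17 ± 0.15 and the glucose transporter gene Slc2a1 at -0.79 ± 0.046. Acot2, which encodes a mitochondrial acyl-CoA thioesterase, fell from 15.2 and 14.7 to 2.03 and 3.21 CPM (-2.54 ± 0.13).

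Of 24 genes of cholesterol synthesis and uptake 8 rose and 4 fell in CPM, but 3 rose and 13 fell on log2(TPM + 1). NRF2 targets were divided as well, 11 of 22 higher and 7 lower (3 and 12 on log2(TPM + 1)), and Slc7a11 was their largest change. Metallothionein genes, which respond to metals, were at -0.45 ± 0.059 (Mt2) and -0.27 ± 0.074 (Mt1), the latter not called without control library 2 (-0.12, adjusted p = 0.134) or 42 °C library 1 (-0.23, adjusted p = 0.0804).

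Cell cycle and death genes moved in both directions. Ccnd1 (cyclin D1) rose from 52.2 and 54.1 to 101 and 96.6 CPM (0.90 ± 0.046), and the inhibitor gene Cdkn1a (p21) fell from 60.02 and 60.8 to 26.2 and 29.2 CPM (-1.13 ± 0.062). Of 36 DNA replication genes 14 rose and 7 fell, and of 35 mitosis genes 19 rose and 7 fell, but on log2(TPM + 1) more fell than rose in both lists (19 against 5 and 13 against 6). Of 19 p53 targets 8 rose and 9 fell (4 and 11 on log2(TPM + 1)), with Plk2 at 1.38 ± 0.053 and Bbc3 (PUMA) at -1.31 ± 0.13. In the BCL2 family the death-promoting Bmf fell from 20.4 and 23.6 CPM to 4.83 and 4.90 CPM (-2.17 ± 0.095), while the protective Mcl1 rose by 0.70 ± 0.040 and the death-promoting Pmaip1 by 0.80 ± 0.067. Of 18 clock genes 10 rose and 7 fell (6 and 7 on log2(TPM + 1)), with Per2 at 1.02 ± 0.086 and Ciart at -1.18 ± 0.15. Cirbp, which cold raises, fell by 0.50 ± 0.081, and its relative Rbm3 was at 485 and 454 CPM in the control and at 481 and 463 CPM at 42 °C.

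Several of the 12 largest falls were genes without introns, a pattern noticed after the values were seen. Ttc30b, a gene of transport in cilia, went from 11.6 and 11.0 CPM to 1.52 and 1.97 CPM (-2.72 ± 0.12). The tRNA-modifying Lcmt2 went from 10.1 and 10.1 CPM to 2.03 and 1.94 CPM (-2.35 ± 0.11) and Trmt12 from 11.6 and 11.5 to 2.23 and 2.79 CPM (-2.21 ± 0.11). The receptor gene Lpar6 went from 12.7 and 11.2 to 2.37 and 2.86 CPM (-2.20 ± 0.12).

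Intron content was therefore approximated for 11333 protein-coding genes, as the RefSeq span of the gene divided by the transcript length recovered from the ratio of counts to TPM. A ratio within 5% of 1 was taken as no intron. This class held 210 genes (1.85%), and 4 of the 10 classed genes among the 12 largest falls. Of the 210, 44.8% were called lower and 27.1% higher, and 13.8% were lower by at least 1. The share lower by at least 1 was 9.45% at ratios up to 2, 5.95% from 2 to 5, 3.71% from 5 to 10, 2.68% from 10 to 20 and 2.49% above 20. The share higher by at least 1 fell as well, from 7.14% without introns to 0.845% at 10 to 20. Genes without introns were also less abundant, with a median control level of 10.6 CPM beside 47.0 CPM at ratios of 10 to 20. Among genes whose average log2 CPM reached 3 the share lower by at least 1 was 11.8% (14 of 119) without introns and 1.14% at ratios of 10 to 20. At 44 °C, with the same control, 46.7% of genes without introns were higher and 25.7% lower, beside 35.4% and 35.7% of all genes tested. By at least 1, 13.8% of this class were higher and 4.76% lower at 44 °C, beside 6.09% and 4.88% of all genes. At 42 °C on log2(TPM + 1), 53.3% of genes without introns were lower and 16.2% higher. These shares were 59.0% and 16.8% at ratios up to 2, and 46.9% and 16.1% at 10 to 20. Lower calls of any size were thus not most frequent without introns on that scale. By at least 1 on that scale, 11.4% without introns were lower, beside 7.94% at ratios up to 2 and 2.01% at 10 to 20. The classes also differ in transcript length and level, so these shares are a description without a test.

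**Figure D4:**
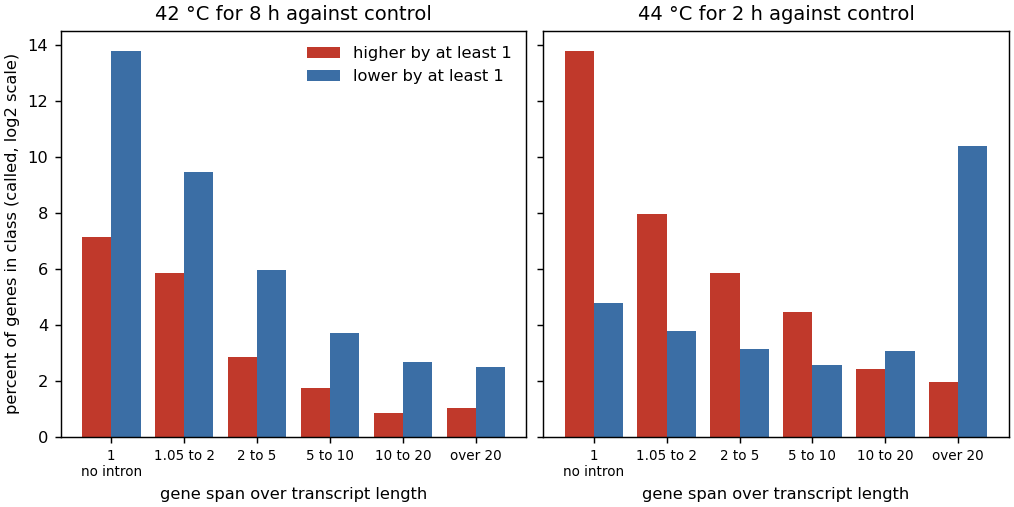
Percent of protein-coding genes called and changed by at least 1 on the log2 scale (y axis) in 6 classes of gene span over transcript length (x axis), at 42 °C for 8 h (left) and 44 °C for 2 h (right), both against the same control; red bars are higher, blue bars lower. At 42 °C the share of lower genes runs from 13.8% without introns to 2.49% above a ratio of 20, and at 44 °C it is highest, at 10.4%, above 20.

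Transcription past gene ends was called by the authors for 6399 pairs of neighbouring genes in each library, as a true or false value. Calls of downstream-of-gene transcripts numbered 1785 and 1693 in the control and 2049 and 1949 at 42 °C. Calls of read-in, in which such a transcript reaches into the next gene, numbered 48 and 45 in the control and 83 and 84 at 42 °C (95 and 112 at 44 °C). The control and 42 °C ranges did not overlap, but the smallest two-sided p that an exact permutation test allows with 2 libraries against 2 is 0.333. In both 42 °C libraries and neither control library 201 pairs had a downstream transcript and 27 pairs had read-in. The reverse, both control libraries and neither 42 °C library, held for 109 and 5 pairs. Of 25 read-in genes of the 27 pairs that were tested, 13 were called higher and 8 lower, and 5 rose by at least 1.

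Those 5, named after their values were seen, were Hspa1b behind Hspa1a, Slc5a5, Ifitm5, Zglp1 and Cntf. Slc5a5, an iodide transporter gene, was at 0.413 and 0.325 CPM in the control and at 7.15 and 8.00 CPM at 42 °C (4.33 ± 0.19). Ifitm5, behind Ifitm2, went from 0.390 and 0.325 to 3.66 and 4.72 CPM (3.52 ± 0.24). Cntf, behind Zfp91, went from 2.02 and 1.68 to 8.38 and 8.50 CPM (2.18 ± 0.14). Zglp1 rose by 2.62 ± 0.22. The read-in call itself depends on reads in the downstream gene, so a rise of that gene is not independent of the call.

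Heat at 42 °C for 8 h was also set directly against 44 °C for 2 h, within the same fit. These groups differ in temperature and in time, which cannot be told apart. Of 12747 genes 9572 (75.1%) differed, 4829 (37.9%) higher and 4743 (37.2%) lower at 42 °C. By at least 1, 647 (5.08%) were higher and 1268 (9.95%) lower. On log2(TPM + 1) 2764 genes were higher and 6798 lower, 221 of them higher by at least 1, and the median over all genes was -0.203. Against the shared control, 9055 genes (71.0%) were called at 44 °C, 4510 (35.4%) higher and 4545 (35.7%) lower. A set of 2435 genes (19.1% of those tested) was called in opposite directions against the control and also differed between the treatments: 1257 were higher at 42 °C and lower at 44 °C, and 1178 the reverse.

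Chaperones differed in both directions between the treatments. Hspa1a was at 331 and 448 CPM at 44 °C, below 42 °C by 3.996 ± 0.14 on the log2 scale, and Hspa1b was below by 3.49 ± 0.11. Dnajb1 was also lower at 44 °C (2.38 ± 0.046), at 132 and 140 CPM. Hspb1, in contrast, reached 1644 and 1836 CPM at 44 °C, a log2 difference of -1.24 ± 0.062 at 42 °C from 44 °C. Hsp90aa1 reached 5217 and 5412 CPM at 44 °C (-0.71 ± 0.041). Hspd1 was not called (-0.04 ± 0.039, adjusted p = 0.37), but on log2(TPM + 1) it was lower at 42 °C (-0.29, limma adjusted p = 3.52e-05). Of the chaperonins 8 of 10 were higher at 42 °C and 1 lower, and of the HSP90 list 2 of 13 were higher and 7 lower (on log2(TPM + 1), 6 against 2 and 1 against 11).

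Of 30 immediate early genes 21 were higher and 5 lower at 42 °C than at 44 °C, and of 36 translation factors 32 were higher and 1 lower (on log2(TPM + 1), 17 against 6 and 23 against 7). Jun, of the first list, was at 82.0 and 86.7 CPM at 44 °C (difference 2.26 ± 0.046). Outside these lists, Atf3 was at 22.9 and 26.8 CPM (3.24 ± 0.060) and Phlda1 at 32.6 and 37.2 CPM (3.14 ± 0.057). All 28 SRF and actin genes fell at 44 °C against the control, and 27 of 28 were higher at 42 °C than at 44 °C. Actg1, for instance, was at 2784 and 2707 CPM in the control, at 3747 and 3481 CPM at 42 °C and at 683 and 715 CPM at 44 °C. Ctgf was at 18.4 and 16.9 CPM at 44 °C (difference 3.01 ± 0.074). Of the 79 ribosomal protein genes 39 fell and 4 rose at 44 °C, and 78 were higher at 42 °C. Cholesterol genes fell in 23 of 24 cases at 44 °C, and 22 were higher at 42 °C. Proteasome genes fell in 28 of 36 cases at 44 °C, and 35 were higher at 42 °C. On log2(TPM + 1) the genes higher at 42 °C than at 44 °C numbered 27 of the actin list, 59 of the ribosomal list, 22 of the cholesterol list and 25 of the proteasome list, against 1, 2, 2 and 1 lower.

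The endoplasmic reticulum list had the opposite order: 17 of 23 genes rose at 44 °C, and 22 of 23 were lower at 42 °C than at 44 °C. Hspa5 (BiP), the most abundant HSP70 of this compartment, was at 1356 and 1286 CPM in the control, 1195 and 1225 CPM at 42 °C and 2214 and 2236 CPM at 44 °C (difference -0.88 ± 0.042). The interferon list was lower at 42 °C than at 44 °C in 18 of 21 genes, with Ifit1 at 43.4 and 37.6 CPM at 44 °C (-2.30 ± 0.12). Trib3 was at 64.2 and 67.2 CPM at 44 °C (-2.80 ± 0.085), Dnm3os at 40.3 and 37.8 CPM (-3.60 ± 0.12) and Bmf at 28.8 and 30.04 CPM (-2.59 ± 0.093). The genes without introns named above, Ttc30b (-3.20 ± 0.12) and Lcmt2 (-2.82 ± 0.11), were slightly above the control at 44 °C, by 0.48 and 0.47. Rmrp, Rpph1 and Rn7sk were higher at 42 °C than at 44 °C by 4.21 ± 0.11, 4.26 ± 0.10 and 3.89 ± 0.087, and Rn45s by 0.73 ± 0.17. The call of Rn45s was lost with DESeq2 (adjusted p = 0.0596) and on log2(TPM + 1) (0.48, limma adjusted p = 0.0503).

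**Figure D5:**
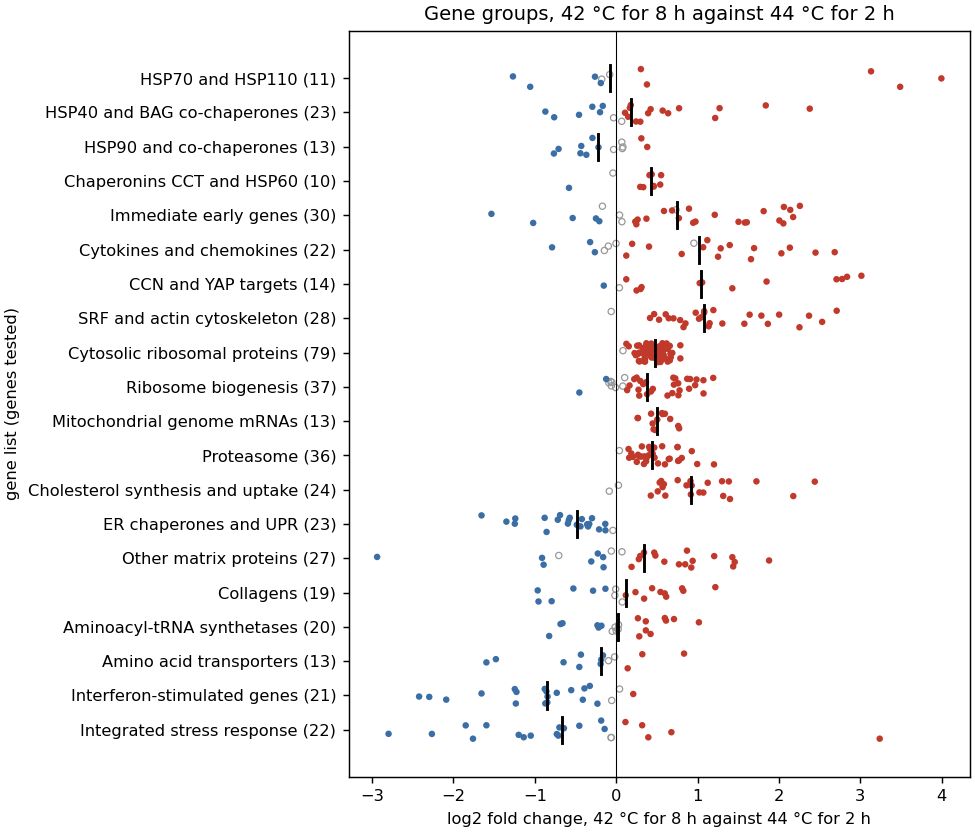
Log2 fold change at 42 °C for 8 h against 44 °C for 2 h (x axis) of the members of 20 gene lists (y axis, number tested in brackets); filled points were called, open points were not, and black bars mark list medians. The actin, cytokine, cholesterol and ribosomal lists lie mostly to the right of 0, with 27 of 28 actin genes called higher, and the endoplasmic reticulum and interferon lists to the left.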

How the data were processed

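RNA of the 6 heat libraries (control, 42 °C for 8 h and 44 °C for 2 h, 2 each) was analysed. The deposited expected counts per gene symbol and the deposited TPM values were made by the authors with STAR, RSEM and Bowtie on mm10, per the submitters' processing notes, which give no version or role. The authors' deposited calls of downstream transcripts and read-in were used as deposited, and the deposited ratio estimating read-in was read but no value of it is given. The expected counts were whole numbers as deposited. A further 12 columns with no labelled sample were not used.

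The counts were fitted in R 4.3.3 with edgeR 4.0.16 (TMM, filterByExpr, quasi-likelihood F test over the 6 libraries, Benjamini-Hochberg over 12747 genes, threshold 0.05). The script was tested on simulated counts with 200 changed genes. There edgeR recovered 89% of them, and 78.5% of those changed by 0.5 on the log2 scale. Of its calls 10.1% were false, more than the threshold of 0.05 allows. DESeq2 recovered 83.5%, with 4.02% of its calls false. Alternatives used DESeq2 1.42.0, limma 3.58.1 on voom weights or on log2(TPM + 1), other normalization and filters, and fits without 1 library. Ratios of low counts were scaled by total counts without TMM, and their exact intervals cover counting error only. RefSeq tables (GRCm38.p6) gave names for 12368 of the tested symbols, promoters and microRNAs.

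Genes named were the 12 largest rises and falls among called genes whose average log2 CPM reached 3 and whose libraries do not overlap, and, in each of 66 gene lists, up to 4 called members with the largest change and the most abundant member, with lists of up to 12 named whole. Some genes that this rule takes are not reported here. Gene lists and members were chosen with earlier results of these data known. Other genes, among them those of read-in, the exceptions named within lists, Chac1, Asns, Ddit3, Ddit4, Sesn2, Psat1, Phgdh, Nupr1, Cebpb, Ppp1r15a, Irf1, Jun, Myc, Actg1 and Hspa5, were chosen after their values were seen, as were the ATF4-type and interferon-type motifs and the classes by intron content.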

Additional observations from a re-analysis of the deposited data

Results flagged for a closer look

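Heat at 42 °C for 8 h and at 44 °C for 2 h moved 2435 genes in opposite directions, each called against the shared control and in the direct comparison of the treatments. Of the genes whose change at 42 °C is given above, 50 were among them. The value after each is the log2 fold change at 42 °C minus that at 44 °C, tested in edgeR's quasi-likelihood fit (n = 2 libraries per treatment).

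Higher at 42 °C and lower at 44 °C were Ctgf (3.01), Ankrd1 (2.84), Tnfaip3 (2.69), Jun (2.26), Tagln (2.25), Myc (2.17), Plk2 (2.06), Klf6 (2.05), Tpm1 (1.86) and Amotl2 (1.85). The same order held for Srm (1.72), Cnn1 (1.64), Fhl2 (1.58), Ccnd1 (1.32), Il1rl1 (1.28), Col12a1 (1.22), Eif5a (1.11), Axl (1.03), Vim (0.94) and Fgfr2 (0.91). Also in this direction were Fn1 (0.85), Slc38a4 (0.83), Col4a2 (0.83), Ppp1r15a (0.68), Ubb (0.63), Eno1 (0.43) and Pkm (0.27). Lower at 42 °C and higher at 44 °C were Ttc30b (-3.20), Lcmt2 (-2.82), Bmf (-2.59), Trmt12 (-2.58), Ifit1 (-2.30), Ifit3 (-2.09), Slc16a3 (-2.06), Clp1 (-1.99), Mmp19 (-1.82) and Cdkn1a (-1.67). This order also held for Gbp2 (-1.65), Bbc3 (-1.58), Mt2 (-1.48), Vegfa (-1.45), Syvn1 (-1.35), Slc2a1 (-1.25), Dnajb9 (-1.24), Clk1 (-1.13), Hspa2 (-1.06) and Nr4a2 (-1.02). The last of these were Dnajb14 (-0.76), Nbr1 (-0.75) and Mt1 (-0.72). The treatments differ in both temperature and time, which cannot be told apart.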

How the results depend on the processing

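The balance of higher and lower genes depended on the scale. Against the control, log2(TPM + 1) gave 1945 higher and 6287 lower genes, 125 and 394 of them by at least 1, and log2(TPM + 0.1) gave 1971 higher and 6316 lower. Against 44 °C, log2(TPM + 1) gave 2764 higher genes, 221 by at least 1. DESeq2 called 6839 genes at 42 °C against 8113 with edgeR. Summing rows of an older and a newer symbol, an alternative chosen after seeing the data, gave 8172. Without 1 library in turn, 6553 to 7163 genes were called, 3345 to 3633 higher and 3208 to 3530 lower, 337 to 371 and 569 to 687 of them by at least 1. Against 44 °C the ranges were 8643 to 9146 called, 4433 to 4652 higher, 4210 to 4494 lower, and 629 to 672 and 1167 to 1302 by at least 1.

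The labels do not say whether equal replicate numbers mark paired libraries. Deviations from the group means correlated at 0.117 (control and 42 °C), 0.00267 (control and 44 °C) and -0.0247 (44 °C and 42 °C). Such correlations cannot exclude a pairing, because the deviations also hold counting noise. With the replicate block 8305 genes were called at 42 °C and 9709 against 44 °C, beside 8113 and 9572 without it.

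Over the 203 genes given above with a change at 42 °C, 2758 of 2840 values under the alternatives kept direction and side of the threshold, 51 lost the call, 12 gained it and 19 changed sign. On log2(TPM + 1) the sign changed for Vim (-0.090), Pkm (-0.069), Hyou1 (-0.0632), Eno1 (-0.0541), Fgfr2 (-0.0467), Hsp90b1 (-0.0415), Dnajb11 (-0.0244), Pgam1 (-0.0125) and the uncalled Hspa12a (-0.0865). On log2(TPM + 0.1) these values were -0.090, -0.069, -0.0636, -0.0542, -0.0484, -0.0415, -0.0246, -0.0125 and -0.188. Calls of Col7a1, Cryab, Krt8, Met, Slc38a4 and Srpk1 were lost on log2(TPM + 1), and those of Actb, Hsbp1 and Hspb6 were gained. With DESeq2, Amotl1, Dnm3, Fgfr2, Krt8 and Mt1 lost theirs. Without 1 library Hspa12a ranged from -0.21 to 0.19. Calls of Amotl1, Cryab, Dnm3, Eno1, Fgfr2, Klf4, Krt8, Pkm, Vim, Hsp90b1, Hyou1, Mt1, Nr4a2, Hsf4 and Pgam1 were lost without at least 1 library. The cause of these changes was not tested.

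With 2 libraries a group, small changes rest on the spread shared over 6 libraries. Genes with few counts, Rmrp, Vaultrc5 and Il6 among them, are limited by depth.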
